A study of Mus musculus with 2 samples.

Results

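The fibrillar collagens examined here were the 8 fibril-forming chains of types I, III, V and XI, namely Col1a1, Col1a2, Col3a1, Col5a1, Col5a2, Col5a3, Col11a1 and Col11a2. They were found by their Ensembl identifiers through GENCODE M21 symbols, and all 8 had an entry among the 36458 genes of each library. The libraries came from liver cells of male C57/Bl6 mice that had received carbon tetrachloride (CCl4, a hepatotoxin) for 5 weeks, with injections 3 times a week. The control library was from Foxf1fl/fl mice, in which both Foxf1 alleles carry loxP sites but no Cre is present. The other library was from αSMACreER;Foxf1-/- littermates (labelled αSMACreER;Foxf1 fl/fl, and here called knockout), in which a tamoxifen-inducible Cre under the α-smooth muscle actin promoter deletes the floxed gene in cells that express that promoter. Mice were 6 to 8 weeks old when used, and tamoxifen was given at 40 mg/kg on 3 days of each week from week 2. Liver cells were plated for 2 hours, the adherent cells were collected, and samples were pooled into 1 library per genotype, with the number of animals in a pool not given in the sources used here. The libraries held about 9750000 (Foxf1fl/fl) and 11330000 (knockout) mapped reads by an estimate from the spacing of low values. Without replicates, differences between the genotypes could not be tested against variation between animals, and p-values are not given. Foxf1 itself was not analysed here, so its deletion was not checked in these libraries.

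Fibrillar collagens assemble from procollagen trimers into the cross-striated fibrils that give scar tissue its tensile strength. Type I collagen usually contains more α1 than α2 chains, type III is a homotrimer of the Col3a1 product, and the less abundant types V and XI are built into type I and II fibrils, where they limit fibril diameter. In injured liver the main source is the hepatic stellate cell (HSC), the vitamin A-storing cell that becomes a collagen-producing myofibroblast.

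The adherent cells were labelled stromal, so marker genes of liver cell types were used to check that label. Levels are in FPKM, fragments scaled to transcript length and to sequencing depth. Des (desmin, a stellate cell filament) was at 1.70 in Foxf1fl/fl and 3.29 in knockout cells. Lrat, the enzyme that stores vitamin A in stellate cells, had 0.0778 and 0.111, from about 3.91 and 6.45 reads. Cnn1 (0.0904 and 0.0766), Ngfr (0.128 and 0.0762) and Hhip (0.0237 and 0.0214) were near 0 too. These 4 were named after their values were seen. The median FPKM over 21 stellate cell and myofibroblast markers was 1.70 and 2.95. Over 12 macrophage markers it was 1143 and 841, and over 11 hepatocyte markers it was 158 and 72.5. By these medians, macrophage and hepatocyte markers were above stellate cell and myofibroblast markers in both libraries. The summed FPKM, given further on, depends on the most abundant gene of each list. For every value below, fewer cells of a type and less RNA per cell cannot be told apart.

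Promoter sequence from RefSeq (GRCm38.p6) was matched for 6 of the 8 genes, that is for all but Col1a1 and Col5a2. The stretches below are shown to describe promoters that differ in composition. Whether promoter sequence bears on the fold changes described further on was not tested. Each runs 5′ to 3′ on the gene's strand and ends 1 base before the RefSeq transcript start, except for Col1a2, where only the part outside annotated exons is printed. The window of Col3a1 is chr1:45311288-45311537 (plus strand), that of Col5a1 is chr2:27886175-27886424 (plus strand), that of Col5a3 is chr9:20815068-20815317 (minus strand), and the part of Col1a2 is chr6:4505370-4505492 (plus strand). Capitals mark TAAACA (a forkhead core, which overlaps the TATA-like TATAAA in the Col3a1 window), CCAAT and GGGCGG, read on both strands.
Col3a1: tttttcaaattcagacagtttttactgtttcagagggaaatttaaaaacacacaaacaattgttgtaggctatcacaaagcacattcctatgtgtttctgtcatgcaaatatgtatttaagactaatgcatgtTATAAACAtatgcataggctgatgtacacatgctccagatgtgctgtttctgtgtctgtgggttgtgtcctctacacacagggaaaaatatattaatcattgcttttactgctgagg
Col1a2: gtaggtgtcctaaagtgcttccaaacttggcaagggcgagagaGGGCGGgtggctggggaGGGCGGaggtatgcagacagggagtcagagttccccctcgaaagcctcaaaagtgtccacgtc
Col5a1: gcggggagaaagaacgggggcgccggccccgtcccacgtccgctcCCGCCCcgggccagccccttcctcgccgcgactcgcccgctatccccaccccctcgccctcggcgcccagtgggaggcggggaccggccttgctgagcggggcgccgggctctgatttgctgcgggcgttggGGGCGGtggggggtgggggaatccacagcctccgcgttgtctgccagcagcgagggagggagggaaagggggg
Col5a3: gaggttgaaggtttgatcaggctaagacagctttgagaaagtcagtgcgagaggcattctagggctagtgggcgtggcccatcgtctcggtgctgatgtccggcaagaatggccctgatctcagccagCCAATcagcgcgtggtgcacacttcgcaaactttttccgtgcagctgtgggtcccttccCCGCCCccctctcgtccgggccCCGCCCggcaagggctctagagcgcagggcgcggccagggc
The 250 bases before the start held 35.2% G and C for Col3a1, 62% for Col1a2, 62.8% for Col5a3 and 76.4% for Col5a1, against a median of 52.4% over 32851 promoters. TAAACA (or TGTTTA on the other strand) was found in the windows of Col3a1 and Col11a2, and in 12.0% of all promoters. TATAAA (or TTTATA) was found in the same 2 windows and in 12.4% of all promoters. CCAAT (or ATTGG) was found for Col1a2, Col5a3 and Col11a1, and in 33.8% of all promoters, and the Col1a2 match lies outside the printed part. GGGCGG (or CCGCCC) was found for 5 of the 6, all but Col3a1, and in 32.7% of all promoters. A match describes the letters only and is not evidence of binding.

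The first question was which fibrillar collagen mRNAs differed in level between the genotypes. FPKM values below are as deposited. Fold changes are the difference in log2(FPKM + 0.1), knockout minus Foxf1fl/fl, after the knockout values were divided by 1.02, the median ratio over the 11871 genes at 1 FPKM or more in each library, and this scale understates the change of genes near 0. Intervals are approximate 95% counting intervals from estimated read numbers, and they hold no variation between animals.

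Col3a1, the chain of type III collagen (ENSMUSG00000026043, chr1:45311538-45349706 of mm10, plus strand, 51 exons in its longest transcript), had the highest level, at 115 FPKM in Foxf1fl/fl and 164 in knockout cells. These values rest on about 6009 and 9994 reads and gave a log2 fold change of 0.49 (interval 0.44 to 0.54), or 1.40-fold. Among all genes, Col3a1 was at rank 898 by FPKM in the control library and at rank 563 in the knockout library. Col1a2, the α2 chain of type I collagen (ENSMUSG00000029661, chr6:4504814-4541543, plus strand, 52 exons), was at 102 and 151 FPKM, from about 5128 and 8821 reads. Its log2 fold change was 0.54 (0.49 to 0.59). Col1a1, the α1 chain of type I collagen (ENSMUSG00000001506, chr11:94936224-94953042, plus strand, 51 exons), had 70.2 and 103, from about 3919.8 and 6675 reads. Its log2 fold change was 0.52 (0.47 to 0.58). The 3 abundant chains were each higher in the knockout library by nearly the same factor, between 1.40-fold and 1.45-fold.

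The type V chains were far below type I, with Col1a1 at 7.33 times the FPKM of Col5a2 in Foxf1fl/fl and 6.29 times in knockout cells. Col5a2 (ENSMUSG00000026042, chr1:45374321-45503282, minus strand, 54 exons) encodes the α2(V) chain and was at 9.56 FPKM in Foxf1fl/fl and 16.4 in knockout cells. Its log2 fold change of 0.74 (0.61 to 0.89), or 1.67-fold, was the highest of the 8 genes, and its whole interval lay above 1.5-fold. Col5a1 (ENSMUSG00000026837, chr2:27886425-28039514, plus strand, 66 exons) encodes the α1(V) chain common to most type V trimers and was at 6.69 and 10.2 FPKM, for a log2 fold change of 0.57 (0.42 to 0.73). Col5a3 (ENSMUSG00000004098, chr9:20770050-20815067, minus strand, 67 exons) encodes the α3(V) chain of a rarer trimer and was at 7.65 and 11.3 FPKM, for a log2 fold change of 0.54 (0.37 to 0.71). Each of the 3 was higher in the knockout library.

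The type XI chains, best known from cartilage, were split. Col11a2 (ENSMUSG00000024330, chr17:34039437-34066685, plus strand, 64 exons) was at 3.86 and 6.20 FPKM, from about 220.3 and 411 reads, for a log2 fold change of 0.64 (0.42 to 0.90) or 1.56-fold. Col11a1 (ENSMUSG00000027966, chr3:114030540-114220718, plus strand, 67 exons) was listed at 0 in both libraries with a status of OK, and no fold is given for it. At the estimated depth, 3 reads of Col11a1 would correspond to an FPKM of 0.0412 in the control and 0.0355 in the knockout library.

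**Figure D1:**
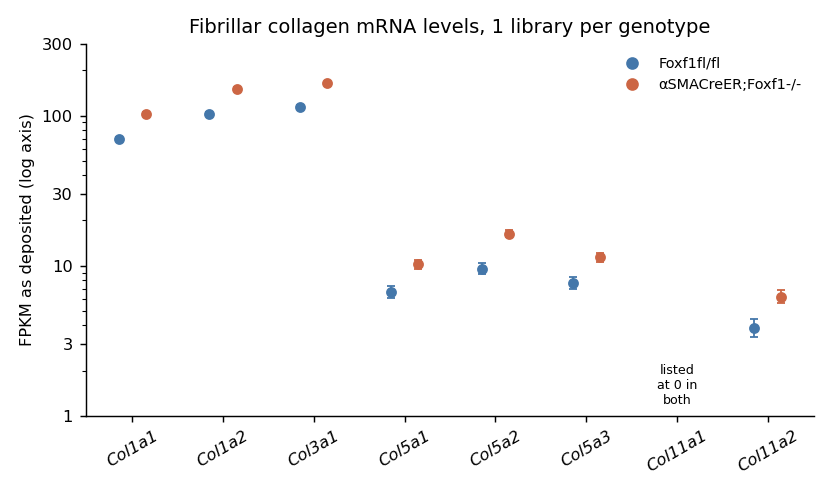
FPKM as deposited (log axis) of the 8 fibrillar collagen genes in the Foxf1fl/fl (blue) and αSMACreER;Foxf1-/- (orange) library, with 1 library per genotype. Bars are approximate 95% counting intervals of the estimated reads. The knockout point lies above the control point for the 7 genes above 0, and Col11a1 was listed at 0 in both.

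Of the 8 genes, 7 passed the filter on low values, a mean of 1 FPKM or more. All of these 7 were higher in the knockout library, each with a counting interval above 0. Their log2 fold changes ranged from 0.49 to 0.74, with a median of 0.54, against a median of 0.00 over all 12692 genes that passed the filter and quartiles of all genes at −0.32 and 0.33. The threshold of 1.5-fold, which is the one used in the study's methods, was passed by 2 of the 7, Col5a2 and Col11a2, or 28.6%, against 12.8% of all genes. None was at least 1.5-fold lower, against 13.2% of all genes. The count of 2 sits close to the threshold, since the intervals of 4 of the 7 contain 1.5-fold. It was 7 with the libraries scaled to an equal FPKM sum, 1 with a pseudocount of 1, and 0 with the length trend described next removed. The equal sum also moved the split of all genes past 1.5-fold from 1624 higher and 1678 lower to 2690 higher and 1130 lower.

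The order of the levels was the same in both libraries, with Col3a1 first, then Col1a2, Col1a1, Col5a2, Col5a3, Col5a1, Col11a2 and Col11a1. The neighbours closest in ratio were Col3a1 and Col1a2, with 1.12 (1.08 to 1.17) in Foxf1fl/fl and 1.09 (1.06 to 1.12) in knockout cells. Col5a3 and Col5a1 followed with 1.14 (1.01 to 1.30) and 1.11 (1.01 to 1.23), and their intervals came nearest to 1. These intervals cover counting error alone, so whether neighbours as close as Col5a3 and Col5a1 would keep their order in other animals is unknown.

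Fibrillar collagens have long transcripts, and the fold change of all genes varied with transcript length. The longest annotated transcripts of the 7 expressed genes ran from 5348 bases for Col1a2 to 8406 bases for Col5a1, with a median of 6048 bases, against 3066.5 bases over all genes that passed the filter. When those genes were put into 20 groups by length, the median log2 fold change went from −0.36 in the group of the shortest and −0.41 in the next to 0.49 in that of the longest. It was 0.25 in the group that holds Col1a2 (4928 to 5513 bases) and 0.33 in the group that holds Col1a1, Col3a1, Col5a3 and Col11a2 (5515 to 6387 bases). It was 0.37 in the group of Col5a2 (6388 to 7775 bases) and 0.49 in that of Col5a1. In these 4 groups 19.8%, 24.9%, 27.4% and 38.7% of all genes were at least 1.5-fold higher. After the group median was subtracted, each of the 7 remained above 0. Col5a2 had 0.38, Col11a2 had 0.31, Col1a2 had 0.29, Col5a3 had 0.20, Col1a1 had 0.19, Col3a1 had 0.16 and Col5a1 had 0.08. The median of the 7 thus went from 0.54 to 0.20, and the part of the length trend in the collagen values was not tested beyond this subtraction.

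**Figure D2:**
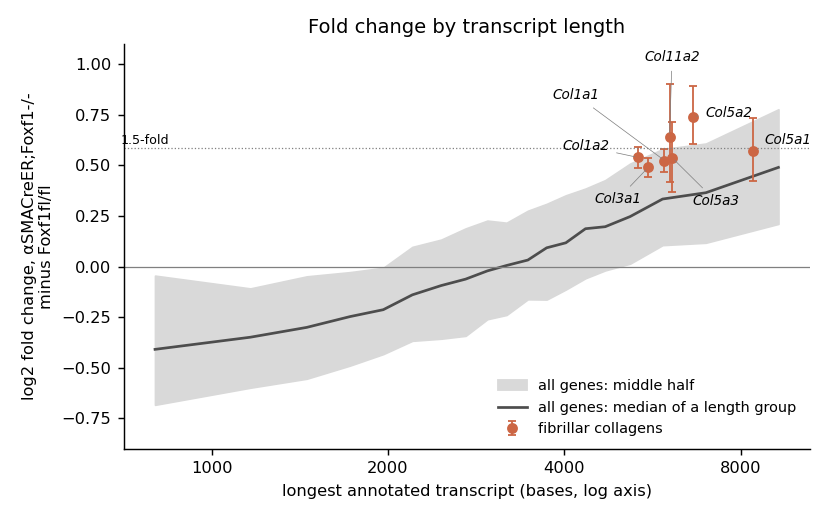
Log2 fold change (knockout minus Foxf1fl/fl) against the longest annotated transcript in bases (log axis). The line and grey band are the median and interquartile range of all genes in groups of transcript length, drawn at the group's median length and without the group of the shortest genes, and orange points are the 7 expressed fibrillar collagens with 95% counting intervals. Each collagen lies above the median of its length group, Col5a2 by 0.38 and Col5a1 by 0.08.

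The ratio between chains within a library does not depend on how the libraries are scaled, and was compared next. Col1a1 had 0.687 times the FPKM of Col1a2 in Foxf1fl/fl cells (interval 0.659 to 0.716) and 0.680 times in knockout cells (0.658 to 0.702). By FPKM, α1(I) was thus below α2(I) in both libraries, whereas the protein trimer contains more α1 chains. An FPKM ratio between genes depends on the transcript length assumed for each, which the interval does not cover, so mRNA proportions were not established. The log2 change of the Col1a1 to Col1a2 ratio was −0.01 (−0.09 to 0.06). Col3a1 to Col1a2 was 1.12 and 1.09, a log2 change of −0.05 (−0.12 to 0.02). For both ratios among the abundant chains, the counting interval reached at most 0.12 from 0 on the log2 scale. It holds no variation between animals, so it does not bound the difference between the genotypes.

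Within type V, Col5a1 to Col5a2 was 0.699 (0.621 to 0.787) in Foxf1fl/fl and 0.622 (0.570 to 0.678) in knockout cells, a log2 change of −0.17 (−0.38 to 0.04). Col5a3 to Col5a2 was 0.799 and 0.693, a change of −0.21 (−0.43 to 0.02), and Col11a2 to Col5a2 was 0.404 and 0.379, a change of −0.09 (−0.37 to 0.18). All 3 ratios to Col5a2 were lower in the knockout library, but each interval of the change contains 0. They share Col5a2 as denominator, the chain with the highest fold change, so the shared direction restates that value. The summed type V chains to the summed type I chains were 0.139 (0.131 to 0.146) and 0.149 (0.143 to 0.155), a log2 change of 0.10 (0.01 to 0.20), the one ratio of this kind whose interval lay above 0. The type V chains Col5a1 and Col5a2 also fall in length groups with a higher median fold change than those of type I, by values given above. As a share of the FPKM sum of the 8 genes, type I made up 54.7% in Foxf1fl/fl and 54.9% in knockout cells, type III 36.5% and 35.6%, type V 7.59% and 8.19%, and type XI 1.23% and 1.34%. The sum itself was 315 and 462.

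**Figure D3:**
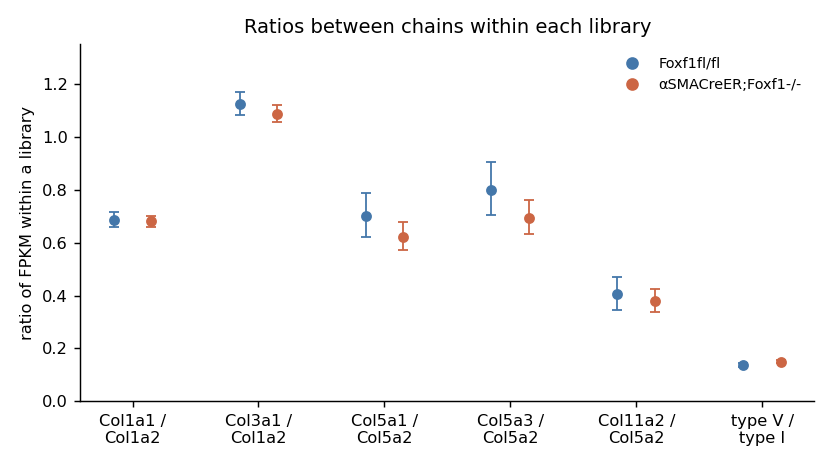
Ratio of FPKM between fibrillar collagen chains within the Foxf1fl/fl (blue) and αSMACreER;Foxf1-/- (orange) library, with 95% counting intervals. Type V and type I are sums over their chains. Col1a1 to Col1a2 was 0.687 and 0.680, and the 2 intervals overlap for each ratio shown.

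The chains were also set against transcripts of the cells that make them. Per Acta2 (α-smooth muscle actin, the contractile marker of myofibroblasts), Col1a1 FPKM went from 9.02 (7.63 to 10.8) to 18.2 (15.1 to 21.9), a log2 change of 1.01 (0.65 to 1.37). The other 6 expressed chains changed by 0.98 to 1.23 per Acta2, with intervals above 0. Acta2 itself was at 7.77 and 5.65 FPKM, for a log2 fold change of −0.48 (−0.85 to −0.11). All 7 ratios share this denominator, which rests on about 139 and 118 reads, so they are not 7 separate observations. The ratios were not adjusted for length. The length group of Acta2 (2035 bases) had a median of −0.21, against 0.33 for that of Col1a1. After the group median was subtracted, Acta2 had −0.27 and Col1a1 had 0.19. Per Des, also a shared denominator, the changes were below 0 but within counting error. Col1a1 went from 41.2 to 31.2, a log2 change of −0.40 (−0.90 to 0.10), and the 7 chains ranged from −0.43 to −0.18, each with an interval that contains 0. Des had a log2 fold change of 0.89 (0.41 to 1.44). Per Pdgfrb (a PDGF receptor of stellate cells and pericytes, at 1.03 and 1.43 FPKM) the changes were 0.04 to 0.29 and each interval contained 0. The sign of the change thus differed between the ratios to Acta2 and those to Des, though counting error did not separate the latter from 0.

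**Figure D4:**
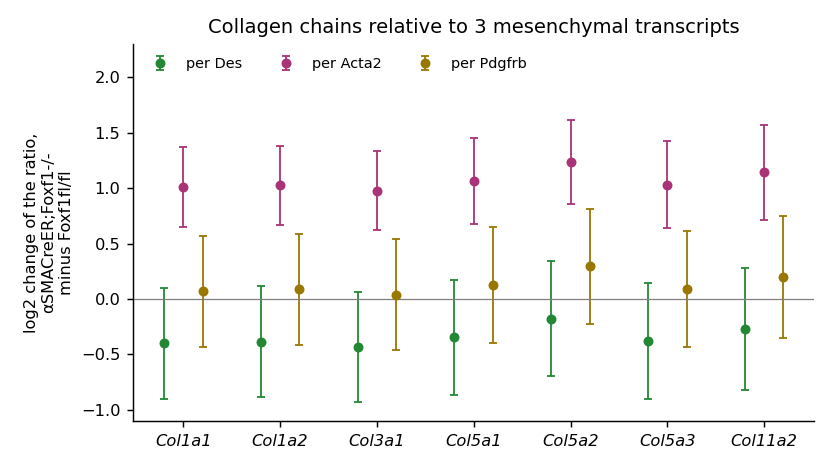
Log2 change, knockout minus Foxf1fl/fl, of the FPKM ratio of each expressed fibrillar collagen to Des (green), Acta2 (purple) and Pdgfrb (ochre), with approximate 95% counting intervals. The ratios to Acta2 changed by 0.98 to 1.23, those to Pdgfrb by 0.04 to 0.29 and those to Des by −0.43 to −0.18. They were not adjusted for transcript length, and each set shares its denominator.

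Lists of genes related to fibrillar collagen were read in the same way. Over all genes the background was 12.8% past 1.5-fold upward and 13.2% downward, and the median was 0.00. Counts of higher and lower genes are over the members that passed the filter. Since that filter uses the mean of both libraries, a gene below 1 FPKM in one library passes only if it is higher in the other, which holds for Col12a1, Fmod, Ddr2, Rgs5 and Mfap4 among the genes below, all 5 of them higher in the knockout library. Of 3 other fibril-forming collagens, Col24a1 was at 1.71 and 3.02 FPKM (log2 fold change 0.76) and Col27a1 had 2.59 and 2.65 (0.01), while Col2a1 did not pass the filter. Of 9 measured fibril-associated collagens, which sit on the surface of fibrils, 4 passed. Col12a1 had 0.741 and 2.13 (1.38, interval 1.13 to 1.87) and Col16a1, the most abundant, had 6.50 and 4.51 (−0.54). Of 24 network, beaded and membrane collagens, 10 passed and 2 were at least 1.5-fold higher, Col6a5 with 9.79 and 23.0 (1.20) and Col6a3 with 1.22 and 2.84 (1.13), both chains of microfibrillar type VI collagen. Col6a2 was the most abundant of them by mean FPKM, with 40.8 and 61.0 (0.55). The medians of these 3 lists were 0.38, 0.41 and 0.38, against 0.54 for the fibrillar chains, and members of each spread more widely than the fibrillar chains, whose values lay within 0.25 of each other. With the length group's median subtracted, as above, the medians were 0.02, 0.24 and 0.01, against 0.20 for the fibrillar chains. The 0.24 of the fibril-associated list rests on 4 genes that lie far apart, from −0.79 for Col16a1 to 0.89 for Col12a1, which passed the filter only through the knockout library.

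The genes that fold and modify procollagen had a median near 0. Of 20 genes, 18 passed, 9 were higher, 2 were past 1.5-fold upward and 1 downward, with a median of −0.02, or 0.04 after the length group's median was subtracted. P4hb (protein disulfide isomerase, also the β subunit of prolyl 4-hydroxylase) was the most abundant, at 692 and 463 FPKM, for a log2 fold change of −0.60 (−0.64 to −0.57). P3h1 and P3h3, which belong to the prolyl 3-hydroxylase family, had 11.3 and 18.3 (0.67) and 2.61 and 4.08 (0.60). Serpinh1 (HSP47, the collagen-specific chaperone, named after its values were seen) had 64.8 and 78.7 (0.25).

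Genes for propeptide cleavage, fibril assembly and crosslinking had a median of 0.44, or 0.37 after that subtraction. Of 18 genes, 16 passed and 14 were higher, with 4 past 1.5-fold upward and 1 downward. Fn1 (fibronectin, on which fibrils assemble) was at 127 and 319 FPKM, for a log2 fold change of 1.30 (1.27 to 1.33). Lox (lysyl oxidase, which crosslinks fibrils) had 6.67 and 10.4 (0.61, 0.41 to 0.83), and Adamts14 (a procollagen N-proteinase) had 1.19 and 1.98 (0.66, 0.24 to 1.19). The fourth was Fmod (fibromodulin), named after its values were seen, with 0.727 and 1.36 (0.79). Pcolce2, by its name an enhancer of propeptide cleavage, was the one past 1.5-fold downward, with 38.3 and 18.3 (−1.09, −1.21 to −0.97). The other lower gene, Pcolce, named after its values were seen, had 30.5 and 26.5 (−0.23, −0.39 to −0.08). Sparc, a collagen-binding glycoprotein, had 249 and 308 (0.28). It was the most abundant of the list by mean FPKM, but below Fn1 in the knockout library. The proteoglycans Dcn, Lum and Bgn were named after their values were seen. Dcn had 127 and 186 (0.53), Lum had 10.7 and 15.7 (0.53), and Bgn had 127 and 173 (0.42). After the length group's median was subtracted they had 0.33, 0.62 and 0.48.

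Of 17 genes for collagen receptors and turnover, 14 passed, 2 were past 1.5-fold upward and 1 downward, with a median of 0.20, or 0.12 after it. The receptor genes Itga1 and Ddr2 were at 2.68 and 5.91 FPKM (1.09, 0.92 to 1.32) and at 0.721 and 1.53 FPKM (0.97, 0.61 to 1.52). The neutrophil collagenase Mmp8 had 5.85 and 3.90 (−0.60). The membrane-bound collagenase Mmp14 was the most abundant by mean FPKM and had 232 and 228 (−0.05). Of 14 measured inducers and regulators of collagen transcripts, 13 passed, 3 were past 1.5-fold upward and 1 downward, with a median of 0.30, or 0.06 after it. The TGF-β receptor Tgfbr1 had 12.0 and 21.2 (0.79), the ligand Tgfb2 had 1.67 and 2.73 (0.65) and the transcription factor Sp1 had 4.20 and 9.40 (1.12). Scx, a tendon transcription factor, had 2.20 and 1.38 (−0.66), from about 38.8 and 28.2 reads and with an interval that contains 0. Ybx1, the most abundant of the list, had 374 and 365 (−0.06).

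**Figure D5:**
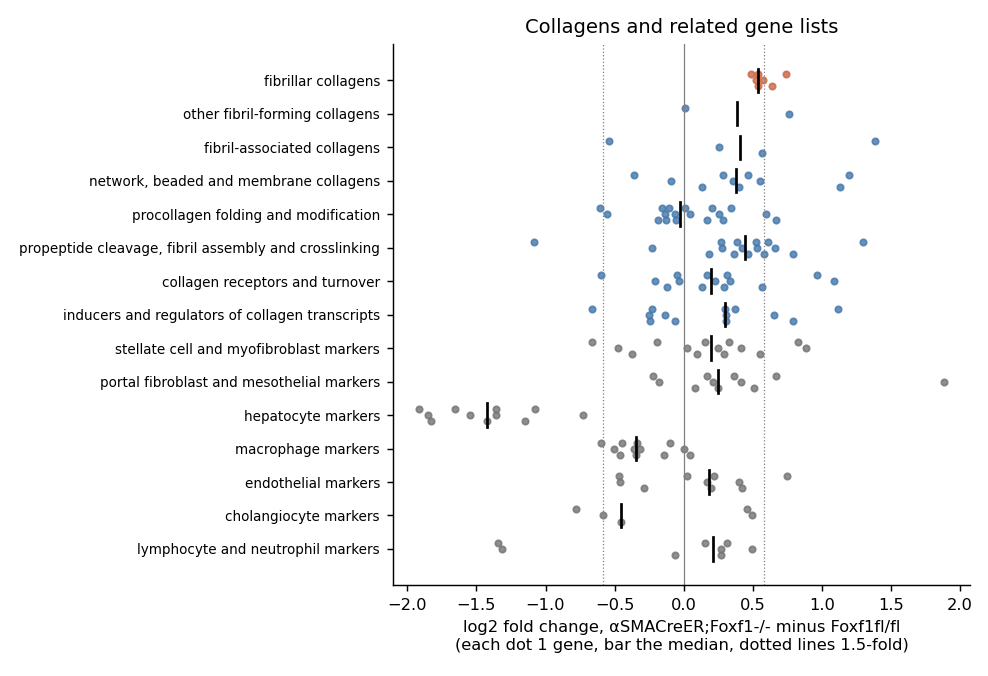
Log2 fold change (knockout minus Foxf1fl/fl) of the genes that passed the filter, by list, with each dot 1 gene, the black bar the list's median and dotted lines at 1.5-fold. The fibrillar collagens (orange) lie between 0.49 and 0.74, and the related lists (blue) each spread more widely. The 11 hepatocyte markers (grey) all lie below the lower line.

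Markers of other cells also differed between the libraries. All 11 measured hepatocyte markers were at least 1.5-fold lower in the knockout library, with a median of −1.42, and their summed FPKM was 4570 and 1660.05. The most abundant, Alb (albumin), had 2292 and 912, Apoa2 had 782 and 220.3, Ahsg had 364 and 138, and Ttr had 322 and 86.8. Of 12 macrophage markers, 1 was higher and 1 was at least 1.5-fold lower, the Kupffer cell lectin Clec4f with 1117 and 753. Their median was −0.34 and their sum 13357 and 11042. Lyz2, the most abundant, had 3682 and 3395. Of 8 lymphocyte and neutrophil markers, the neutrophil genes S100a8 (625 and 256) and S100a9 (1258 and 504) were at least 1.5-fold lower, and the sum, mostly these 2 genes, was 1954 and 840.2. In the same list 5 of the 8 were higher, none by 1.5-fold, and the median was 0.21. Of 10 endothelial markers, 7 were higher, with a median of 0.18, and 1 of these, Vwf with 4.14 and 7.15, was at least 1.5-fold higher. Their sum was nevertheless lower, at 880 and 817, with Clec4g the most abundant at 254 and 187. Of 6 cholangiocyte markers, 5 passed the filter, with a median of −0.45. Cldn4 (26.2 and 15.5) and Epcam (8.38 and 5.65) were at least 1.5-fold lower, and Krt19 was the most abundant with 39.7 and 29.5. Krt7 (4.91 and 6.91, 0.46) and Sox9 (5.05 and 7.30, 0.50), named after their values were seen, were higher with counting intervals above 0. The sum was 84.5 and 65.1. After the length group's median was subtracted, the medians were −1.26 for hepatocyte, −0.12 for macrophage and 0.35 for lymphocyte and neutrophil markers. They were −0.05 for endothelial and −0.15 for cholangiocyte markers.

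Among mesenchymal markers, 14 of the 21 stellate cell and myofibroblast genes passed the filter, with a median of 0.20, or 0.23 after that subtraction. Of these 14, 2 were at least 1.5-fold higher, Des and Pdgfra (2.95 and 5.40, 0.82), and 1 was at least 1.5-fold lower, the tropomyosin Tpm2 (19.6 and 12.6, −0.66). The summed FPKM of the 21, 2044 and 2235, was mostly Vim (vimentin, 1837 and 1996), which macrophages express too. Of 12 portal fibroblast and mesothelial markers, 11 passed and 2 were at least 1.5-fold higher, Mfap4 (0.529 and 2.26) and Dpt (2.10 and 3.47). Their list had a median of 0.25, or 0.32 after that subtraction, and a sum of 80.3 and 95.8. Fbln2 was the most abundant gene of this list, with 19.6 and 25.6. No marker of these lists was at 0 in either library. The part of these shifts between cell types in the collagen values was not tested.

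Genes that do not encode matrix proteins lay close to the main chains in level and fold. By Euclidean distance in the log2(FPKM + 0.1) of both libraries, the 3 nearest genes were Pxn, Adam8 and Zc3h7a for Col1a1, Fam107b, Hspa1b and Tma7-ps for Col1a2, and Nptn, Clec7a and Ctnnb1 for Col3a1. Pxn, the nearest of all, was at 69.3 and 103 FPKM and at a distance of 0.02. A likeness over 2 values describes these libraries only.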

How the data were processed

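The authors aligned 75-base single-end reads of 1 pooled library per genotype to mm10 with TopHat and deposited a Cufflinks FPKM and a status for each of 38320 Ensembl gene entries per library. Versions are not given in the sources used here. Their notes also name DESeq, which belongs to a separate quantification not used here. Strandedness of the quantification is not given in the sources used here.

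Symbols and transcript lengths came from GENCODE M21 (95.2% of entries matched), and 1 entry per symbol was retained, that of highest average FPKM. Entries not marked OK (3) were dropped. Summaries covered 12692 genes whose FPKM averaged 1 or more. Mapped reads were estimated from the spacing of the lowest values (up to 3 reads) of genes with 1 transcript of at least 600 bases, assuming 200-base fragments, as about 9750000 for Foxf1fl/fl and 11330000 for the knockout. Of these values 53.5% and 55.7% lay within 0.1 of a whole read, where chance gives 20%, so the estimate is rough. Counting intervals (95%) are exact conditional binomial for folds and ratios, and normal on the log scale for changes of ratios. They treat reads as independent molecules placed on the longest transcript.

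The members, gene lists and tests were chosen with earlier results of these data known. By rule, genes named were the 8 members and up to 4 genes of each list past 1.5-fold with the highest mean FPKM. The rule also took each list's most abundant gene by that mean, and the 3 nearest genes of Col1a1, Col1a2 and Col3a1. It also took Des, Acta2 and Pdgfrb as denominators. Outside this rule, Lrat, Cnn1, Ngfr, Hhip, Col2a1, Rgs5, Serpinh1, Fmod, Pcolce, Dcn, Lum, Bgn, Krt7, Sox9 and Col5a1's antisense gene Gm13372 were named after their values were seen. The alternatives changed pseudocount, scaling, filter, threshold, handling of repeated symbols and the length trend. The procedure was tested on simulated data. Scripts ran in Python 3.11.15 with scipy 1.17.1, pandas 2.3.3, matplotlib 3.10.9 and numpy 2.4.6.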

Additional observations from a re-analysis of the deposited data

How the results depend on the processing

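With 1 library per genotype no replicate could be left out, and no paired analysis was possible because the groups hold 1 sample each. The direction of the 7 expressed collagens held under the alternatives run. Scaling to the same FPKM sum put the all-gene median at 0.20 and gave log2 fold changes of 0.72 for Col1a1, 0.73 for Col1a2, 0.68 for Col3a1, 0.76 for Col5a1, 0.93 for Col5a2 and 0.73 for Col5a3, with a median of 0.73, 7 chains past 1.5-fold, and 2690 genes higher against 1624. Removing the length trend gave 0.19, 0.29, 0.16, 0.082, 0.38 and 0.20 for the same genes and 0.31 for Col11a2, with a median of 0.20 and 0 chains past 1.5-fold. A pseudocount of 1 left 1 chain past 1.5-fold, and 0 passed 2-fold. At 2-fold 552 genes were higher and 788 lower, without a filter 3832 and 3225, and above a mean of 5 FPKM 685 and 943, against 1624 and 1678. Upper-quartile scaling and the values as deposited each left 3 chains past 1.5-fold, Col5a1 being the third. Chain ratios stayed within their counting intervals with a pseudocount of 0.1 and with summed entries. The cause of these shifts was not tested. Depth limits the genes with few reads, such as Lrat, Mfap4 and Fmod at about 3.91, 8.10 and 20.7 reads in Foxf1fl/fl, and the ratios to Des and Pdgfrb, at about 47.0 and 52.3 reads.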

Other observations

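Gm13372, annotated on the strand opposite to Col5a1 and within its span, had an FPKM of 0.763 in Foxf1fl/fl and 2.64 in knockout cells, and was chosen after its values were seen. If strand was not used in the quantification, reads of the 2 genes cannot be told apart where they overlap. Col3a1 and Col5a2 are neighbours on chromosome 1, with 24614 bases between the ends of their annotated genes, and their log2 fold changes were 0.49 and 0.74.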
